A study of Bos taurus with 11 samples.

Results

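The 10 genes described here build, lengthen, desaturate and import fatty acids, and were measured in the uterine endometrium of dairy cows in severe or mild negative energy balance. They are FASN, ACACA, ACLY, SCD, ELOVL6, ELOVL5, FADS2, SREBF1, ACSS2 and MFSD2A, and they were picked by name: a probe set belonged to a gene if the platform annotation gave it exactly 1 symbol and that symbol was on the list. All 10 genes were on the array, with 14 of the 24016 probe sets that are not array controls, out of 9155 named genes in all. Where a gene had several probe sets, the one with the highest mean over the 11 arrays stands for it and is called the main probe set. By that choice 8 genes rest on a single probe set, ACACA has 2 and SREBF1 has 4.

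Endometrium, the inner lining of the uterus, was taken at slaughter 14 ± 0.4 days after calving from Holstein-Friesian cows that had calved before (parity 4.7 on average). The 6 severe cows were limited to 25 kg of silage with 4 kg of concentrate daily, and milking took place 3 times daily from day 2 after calving. The 5 mild cows had free access to silage with 8 kg of concentrate a day and were milked 1 time daily, also from day 2. For both groups the labels give a previous yield of 6477 ± 354 kg and a crude protein of 21%. Feed and milking were changed together, so their effects cannot be told apart here, and both groups were measured early in lactation, with no group outside negative energy balance analysed here. Each cow gave 1 Affymetrix bovine array, and the deposited values are log2 signals, on which a difference of 1 unit is a doubling. Array correlations ran from 0.948 to 0.991, the lowest being between mild 2 and severe 5. The samples were tissue with several cell types: COL1A2 and COL3A1 of stromal fibroblasts averaged 14.08 and 13.97 in severe cows and 14.21 and 14.00 in mild cows, and EPCAM and KRT18 of epithelium 10.33 and 8.99 in severe cows and 10.34 and 8.88 in mild cows. In such bulk RNA, fewer cells of a type and less RNA per cell cannot be told apart.

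De novo lipogenesis starts from acetyl-CoA, which ATP citrate lyase (ACLY) cuts from citrate in the cytosol and acetyl-CoA synthetase 2 (ACSS2) makes from acetate. Acetyl-CoA carboxylase (ACACA) turns it into malonyl-CoA, fatty acid synthase (FASN) strings these units into palmitate, elongases of the ELOVL family lengthen fatty acids, and the desaturases SCD and FADS2 place double bonds in them. SREBF1 encodes the membrane-bound transcription factor SREBP-1, which switches on most of these enzymes when it is released from the endoplasmic reticulum. In ruminants acetate from rumen fermentation is a main carbon source for fatty acid synthesis. MFSD2A, a transporter rather than an enzyme, brings lysophosphatidylcholine carrying long-chain polyunsaturated fatty acids into cells.

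None of the 10 genes passed the test across all probe sets. FASN, SCD, ELOVL6 and MFSD2A had signals in severe cows between 53.9% and 66.7% of those in mild cows, and ACLY stood at 82.8%, while ELOVL5, FADS2 and ACSS2 had differences at or slightly above 0. Limma called 0 of the 10 genes and 0% of all probe sets at an adjusted p under 0.05, with adjusted p between 0.304 and 0.988 for the 10. No gene of the 10 had groups without overlap, while every severe cow was lower for 0.408% of all probe sets and higher for 0.662%. At an unadjusted p under 0.05 there were 5 of the 10 lower in severe cows and 0 higher. Over all 9155 genes 7.46% were lower and 8.45% higher at that level, and over all probe sets 5.88% and 6.97%. The median difference over the 10 genes was -0.26 log2 units, against a median of -0.00378 over all genes, and 7 of the 10 were below 0, against 51.1% of all genes. The 10 genes were listed with earlier results of these cows known, so these counts describe the genes and are not a test of the list.

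**Figure D1:**
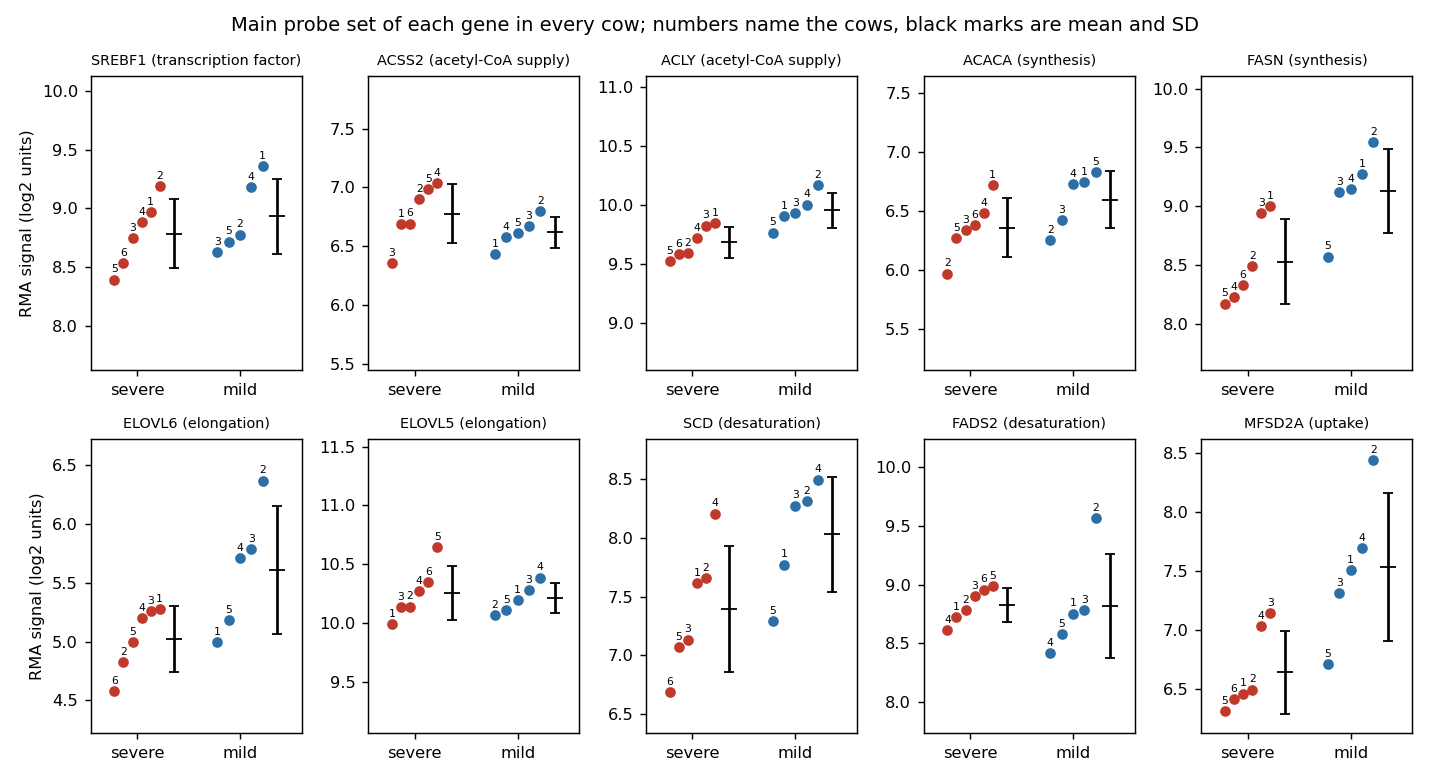
Signal of the main probe set (vertical axis, log2 units, each panel spanning the same range of 2.5 units) in the 6 severe cows (red) and 5 mild cows (blue), with mean and SD in black. FASN, ACLY and MFSD2A each have 4 severe cows below every mild cow, while no panel shows groups without overlap.

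SREBF1 had signals between 8.40 and 9.19 with a median of 8.81 in severe cows, against 9.36, 8.78, 8.63, 9.18 and 8.72 in mild cows 1 to 5. The groups overlapped over most of their range, with 2 severe cows under the lowest mild cow and 1 mild cow over the highest severe cow. The means were 8.79 ± 0.29 in the 6 severe cows against 8.93 ± 0.32 in the 5 mild cows (mean ± SD), a difference of -0.15 with a 95% interval of -0.51 to 0.22 (limma adjusted p = 0.750). The other 3 SREBF1 probe sets differed by -0.04, -0.25 and -0.11. The last of these read under 5.52 in every cow, a limit below which 40% of probe sets have their mean, and differences are compressed at such dim signals. Two-sided exact permutation tests gave p = 0.745, 0.186 and 0.0346 for these 3 probe sets, with limma adjusted p of 0.882, 0.535 and 0.473. SREBP-1 is also controlled by cleavage of the protein, which an RNA array does not measure.

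Of the enzymes that supply acetyl-CoA, ACLY had its mean lower in severe cows and ACSS2 had it higher, neither past the adjusted test. ACLY ranged from 9.52 to 9.84 with a median of 9.66 in severe cows, against 9.90, 10.17, 9.93, 10.002 and 9.77 in mild cows 1 to 5. Only mild 5 lay within the range of the severe cows, and 6 of 6 severe cows were below the mild mean. The averages were 9.68 ± 0.13 in the 6 severe cows against 9.95 ± 0.15 in the 5 mild cows (mean ± SD), a difference of -0.27 ± 0.09 (SE) with a 95% interval of -0.47 to -0.08. Its limma adjusted p was 0.308, and a two-sided exact permutation test (462 ways to divide the cows) gave p = 0.0130. ACSS2, the acetate-using enzyme, ranged from 6.36 to 7.04 with a median of 6.80 in severe cows, against 6.43, 6.80, 6.67, 6.58 and 6.61 in mild cows 1 to 5. Its highest 3 values came from severe cows and so did its lowest, and the difference was 0.16 with a 95% interval of -0.10 to 0.43 (limma adjusted p = 0.60).

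Of the synthesis enzymes, FASN ranged from 8.17 to 8.998 with a median of 8.41 in severe cows, against 9.27, 9.54, 9.12, 9.15 and 8.57 in mild cows 1 to 5. Severe 1 and severe 3 were the high cows of their group, mild 5 was the low cow of its group, and the other 4 cows of each group were separated. FASN averaged 8.53 ± 0.36 in the 6 severe cows against 9.13 ± 0.35 in the 5 mild cows (mean ± SD), which is a signal 1.52-fold lower in severe cows. The difference of -0.60 had a 95% interval of -1.03 to -0.17, a limma adjusted p of 0.308 and an exact two-sided permutation p of 0.0260. ACACA, whose product is the substrate of FASN, ranged from 5.97 to 6.72 with a median of 6.36 in severe cows, against 6.74, 6.26, 6.42, 6.73 and 6.83 in mild cows 1 to 5. Its groups overlapped and differed by -0.24 with a 95% interval of -0.54 to 0.07 (limma adjusted p = 0.497). The second ACACA probe set differed by -0.60 with an interval of -1.18 to -0.01, and severe 2 was its lowest cow at 4.75, so the size of the ACACA difference depends on the probe set.

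Of the elongases, ELOVL6 had the lower mean in severe cows and ELOVL5 was close between groups, a contrast between genes that was not tested. ELOVL6, which lengthens palmitate to stearate, ranged from 4.58 to 5.28 with a median of 5.10 in severe cows, against 4.99, 6.37, 5.79, 5.71 and 5.18 in mild cows 1 to 5. All 6 severe cows and 2 mild cows read under the dim limit of 5.52, so its fold is not exact, and ELOVL6 was the only one of the 10 genes whose mean was dim. The difference was -0.58 with a 95% interval of -1.08 to -0.09 (limma adjusted p = 0.340), and the exact two-sided permutation p was 0.0606. ELOVL5, which lengthens polyunsaturated fatty acids, ranged from 9.99 to 10.64 with a median of 10.21 in severe cows, against 10.20, 10.07, 10.28, 10.39 and 10.11 in mild cows 1 to 5. Both groups covered nearly the same values, and the difference of 0.05 had a 95% interval of -0.20 to 0.29 (limma adjusted p = 0.892).

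The desaturases are SCD, with the lower mean in severe cows, and FADS2, with a difference near 0; the contrast between them was not tested. SCD, which makes oleate from stearate, ranged from 6.69 to 8.21 with a median of 7.37 in severe cows, against 7.77, 8.31, 8.27, 8.49 and 7.29 in mild cows 1 to 5. It spread widely in both groups, and severe 4 was the only severe cow above more than 1 mild cow. SCD averaged 7.40 ± 0.54 in the 6 severe cows against 8.03 ± 0.49 in the 5 mild cows (mean ± SD), a signal 1.55-fold lower in severe animals. The 95% interval of the difference was -1.24 to -0.02 (limma adjusted p = 0.376), and the exact two-sided permutation p was 0.0779. FADS2, which starts the desaturation of essential fatty acids, ranged from 8.62 to 8.98 with a median of 8.85 in severe cows, against 8.75, 9.56, 8.78, 8.42 and 8.58 in mild cows 1 to 5. Apart from mild 2 the cows lay close together, and the difference was 0.00954 with a 95% interval of -0.37 to 0.39 (limma adjusted p = 0.988).

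MFSD2A had the lowest unadjusted p of the 10 genes. It ranged from 6.31 to 7.14 with a median of 6.47 in severe cows, against 7.51, 8.44, 7.31, 7.69 and 6.70 in mild cows 1 to 5. Severe 3 and severe 4 read 7.14 and 7.03, the other 4 severe cows lay below every mild cow, and mild 5 was again the low mild cow. The means were 6.64 ± 0.35 in the 6 severe cows against 7.53 ± 0.63 in the 5 mild cows (mean ± SD), a signal 1.86-fold lower in severe cows. Its difference of -0.89 had a 95% interval of -1.48 to -0.31, a limma adjusted p of 0.304 and an exact two-sided permutation p of 0.0173. In all, 3 of the 10 genes, ACLY, FASN and MFSD2A, had an exact p under 0.05 by their main probe sets, all lower in severe cows. The same test had 6.41% of all genes lower and 7.12% higher, and 5.14% and 6.15% of all probe sets. The count was 1 without mild 2 and severe 5, namely ACLY, where 4.78% of all genes were lower and 5.12% higher. It was 5 without mild 5, where 10.6% of all genes were lower and 7.39% higher.

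**Figure D2:**
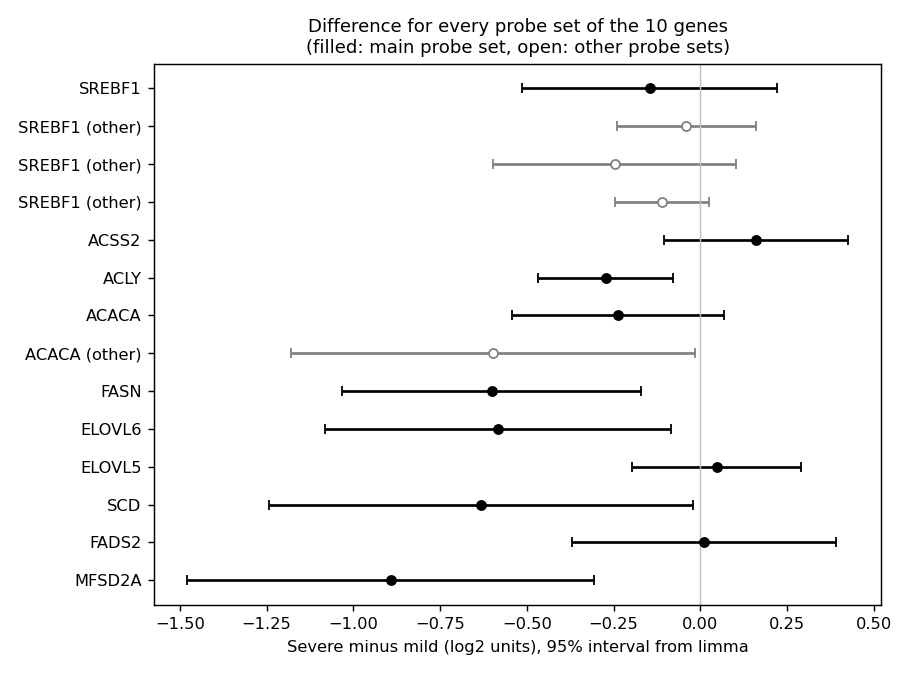
Severe minus mild difference (horizontal axis, log2 units) with its 95% interval from limma for the 14 probe sets of the 10 genes, main probe sets filled and others open. The intervals of ACLY, FASN, ELOVL6, SCD and MFSD2A lie below 0, as does that of the second ACACA probe set, and those of ELOVL5 and FADS2 are centred near 0.

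Mild 2 and severe 5, the least alike pair of arrays, also sat at the ends of these genes. Mild 2 was the highest of the 11 cows for 5 of the 10 genes, and severe 5 was the lowest for 4. Without these 2 cows the difference was -0.43 for FASN, -0.60 for MFSD2A, -0.39 for ELOVL6, -0.19 for ACLY and -0.50 for SCD, and MFSD2A was the 1 gene left at an unadjusted limma p under 0.05 (limma adjusted p = 0.434). Of all 24016 probe sets 1298 were lower at that level without these 2 cows, against 1412 with all cows. Mild 5 stood at the other side of its group. It was under its gene's mean for 9 of the 10 genes, and without it the difference was -0.74 for FASN, -1.10 for MFSD2A and -0.18 for ACACA.

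Cows with more ACLY signal also had more FASN, MFSD2A and ELOVL6 signal, over all 11 cows. Over 11 cows ACLY and FASN had a Pearson r of 0.930 (permutation p = 4e-05) and a Spearman rho of 0.945 (permutation p = 4e-05), and r was 0.873 without mild 2 and severe 5, the 2 cows farthest from the ACLY median (exact permutation p = 0.00250). For ACLY and MFSD2A r was 0.909 (permutation p = 5e-05) and rho 0.891 (p = 0.000410), and r was 0.813 without the same 2 cows. For ACLY and ELOVL6 r was 0.879 (permutation p = 0.000350) and rho 0.800 (p = 0.00476), and r was 0.842 without them. The 45 pairs of the 10 genes were all computed, and by r 5 passed an adjusted p of 0.05: the 3 above with adjusted p of 0.00112, 0.00112 and 0.00525, FASN with MFSD2A (r = 0.810, rho = 0.836, permutation p = 0.00225 and 0.00185, adjusted p = 0.0202) and ELOVL6 with MFSD2A (r = 0.827, rho = 0.636, permutation p = 0.00176 and 0.0402, adjusted p = 0.0198 for r and 0.181 for rho). By rho 6 pairs passed, of which 4 also passed by r. The 2 that passed by rho alone were ACLY with SCD (rho = 0.800, permutation p = 0.00450, adjusted p = 0.0357, and r = 0.715, permutation p = 0.0130, adjusted p = 0.0652) and SCD with MFSD2A (rho = 0.827, permutation p = 0.00253, adjusted p = 0.0285, and r = 0.718, permutation p = 0.0126, adjusted p = 0.0652), with r of 0.626 and 0.644 without the 2 far cows. Leaving out the 2 cows farthest from the median of the first gene gave r of 0.875 for FASN with MFSD2A and 0.592 for ELOVL6 with MFSD2A, and with 9 cows 0 of the 45 pairs passed the adjustment by r. Without mild 2 alone 1 pair passed by r, and without severe 4 alone 9 did. Part of each r is the difference between the groups. After each group's mean was subtracted, r was 0.865 for ACLY with FASN, 0.814 with MFSD2A and 0.800 with ELOVL6, and 0 of 45 pairs passed when values were resampled within groups (permutation p = 0.00375, 0.00918 and 0.00628, adjusted p = 0.138 for each). Within the 6 severe cows ACLY and FASN had an r of 0.840 (exact permutation p = 0.0458), and the 5 mild cows are too few for a value of their own.

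No relation between the main probe set of SREBF1, the activator of the pathway, and the other genes passed the test across cows. Its Pearson r with the other 9 genes ran from -0.412 for ELOVL5 to 0.474 for SCD, and Spearman's rho was -0.327 and 0.527 for these genes. In 9 relations 0 passed, with the smallest permutation p at 0.142 for r and 0.101 for rho, both for SCD, and adjusted p at or above 0.50 and 0.392. The r for SCD was 0.641 without mild 1 and severe 2, the cows farthest from the SREBF1 median (exact permutation p = 0.0635, adjusted p = 0.261). The other SREBF1 probe sets were not tested for such relations, and they did not all order the cows alike. Severe 2 was the highest severe cow on the main probe set at 9.19 and the lowest of all cows on another at 5.86.

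**Figure D3:**
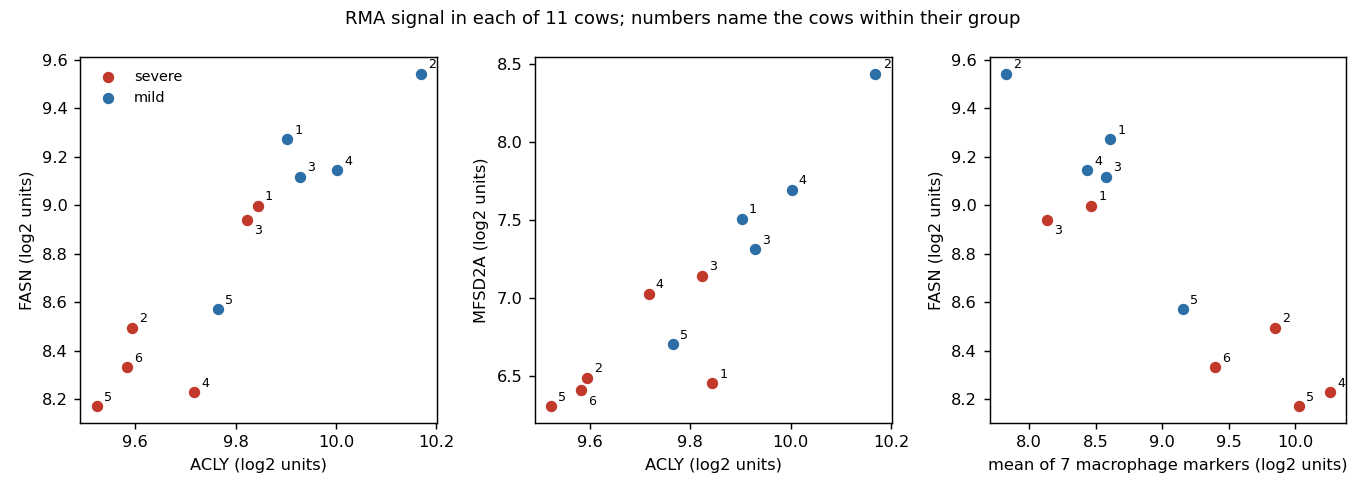
Signals in each of the 11 cows, severe in red and mild in blue, numbers naming the cows: FASN and MFSD2A against ACLY, and FASN against the mean of the 7 macrophage markers (all axes in log2 units). FASN and MFSD2A climb with ACLY (r = 0.930 and 0.909), and FASN is low where macrophage markers are high (r = -0.920).

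The means of the 4 leukocyte marker lists were each higher on average in severe cows. For 6 of 8 neutrophil markers every severe cow read above every mild cow, as for 0.754% of all genes, the other 2 were lower on average in severe cows, and the 8-marker mean ran from 6.51 to 8.64 in severe cows and from 4.98 to 6.08 in mild cows. S100A12 and S100A8, calcium-binding proteins of neutrophil cytosol, averaged 11.75 and 11.39 in severe cows and 8.72 and 8.15 in mild cows. The mean of 7 macrophage markers ran from 8.13 to 10.26 in severe cows and from 7.83 to 9.16 in mild cows, with all 7 higher on average in severe cows. C1QA and C1QB, chains of complement C1q that macrophages secrete, averaged 10.86 and 10.17 in severe cows and 9.66 and 8.97 in mild cows. Severe 1 and severe 3, the severe cows with the highest FASN and ACLY signals, had the lowest macrophage means of their group at 8.47 and 8.13, and mild 5, low in FASN and ACLY, had the highest of its group at 9.16.

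Across the 11 cows FASN and the macrophage mean had a Pearson r of -0.920 (permutation p = 0.000140, adjusted p = 0.0117) and a Spearman rho of -0.827 (permutation p = 0.00252, adjusted p = 0.0432). The r was -0.867 without severe 4 and severe 5, the cows farthest from the macrophage median (exact permutation p = 0.00285, adjusted p = 0.128), -0.898 after group means were subtracted, and -0.929 within the 6 severe cows (exact permutation p = 0.0222). ACLY had an r of -0.844 with the same mean (rho = -0.818, permutation p = 0.00133 and 0.00336, adjusted p = 0.0399 and 0.0432), or -0.878 without severe 4 and severe 5. With the mean of 10 T and NK cell markers ACLY had an r of -0.896 (rho = -0.882, permutation p = 0.000260 and 0.000770, adjusted p = 0.0117 and 0.0423), or -0.838 without severe 2 and severe 5. CD3E and CD3D, chains of the T cell receptor complex, averaged 7.65 and 7.44 in severe cows and 6.76 and 6.59 in mild cows. By r these 3 passed among 90 relations between 10 genes and 9 marker means, and 0 passed by r without severe 5. By rho 7 passed: the same 3 and 4 more, each with a lower signal where the markers were higher. FASN had a rho of -0.827 with the neutrophil mean, -0.873 with the T and NK cell mean and -0.855 with the B and plasma cell mean (permutation p = 0.00275, 0.000940 and 0.00143, adjusted p = 0.0432, 0.0423 and 0.0429), where r was -0.812, -0.793 and -0.770 (permutation p = 0.00294, 0.00353 and 0.00811, adjusted p = 0.0555, 0.0555 and 0.0760). ACLY had a rho of -0.818 with the B and plasma cell mean (permutation p = 0.00321, adjusted p = 0.0432), where r was -0.794 (permutation p = 0.00375, adjusted p = 0.0555). Without the 2 cows farthest from each marker median, r was -0.669, -0.749 and -0.614 for FASN and -0.623 for ACLY. Part of each r with markers is the difference between the groups. After group means were subtracted, r was -0.607, -0.622 and -0.587 for FASN and -0.612 for ACLY. For ACLY it was then -0.785 with the macrophage mean and -0.803 with the T and NK cell mean. Resampling within groups was not done for the relations with markers. SCD had an r of -0.293 and a rho of -0.382 with the macrophage mean (permutation p = 0.374 and 0.248, adjusted p = 0.561 and 0.416), and r was -0.465 without severe 4 and severe 5. With the endothelial mean SCD had an r of -0.795 and a rho of -0.782 (permutation p = 0.00493 and 0.00664, adjusted p = 0.0555 and 0.0741). MFSD2A had an r of -0.780 and a rho of -0.773 with the T and NK cell mean (permutation p = 0.00447 and 0.00741, adjusted p = 0.0555 and 0.0741). Without the far cows of each marker median these r were -0.675 and -0.737.

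With the neutrophil mean as a covariate the severe minus mild difference was -0.02 for FASN, -0.13 for ACLY, -0.37 for ELOVL6, -0.87 for SCD and -0.83 for MFSD2A. With the macrophage mean as a covariate it was -0.23 for FASN, -0.15 for ACLY, -0.35 for ELOVL6, -0.64 for SCD and -0.61 for MFSD2A, and the lowest unadjusted limma p among the 10 genes was 0.0570. Calls also fell over the whole array. Of all 24016 probe sets 1412 were lower at an unadjusted limma p under 0.05 with no covariate. This was 698 with the neutrophil and 471 with the macrophage covariate. Since neutrophil means do not overlap between groups, adjusting for them also removes what the groups share with them, and the part of leukocytes in the differences was not tested. The T and NK cell mean ran from 6.20 to 7.35 in severe cows and from 5.51 to 6.50 in mild cows, and that of 5 B and plasma cell markers from 6.72 to 9.97 in severe cows and from 6.16 to 8.48 in mild cows. The endothelial, stromal and smooth muscle means differed by 0.07, 0.13 and -0.23. Epithelial markers averaged 7.80 ± 0.49 in the 6 severe cows against 7.77 ± 0.27 in the 5 mild cows (mean ± SD), and with them as a covariate FASN was at -0.61 and SCD at -0.64. Of 6 measured adipocyte markers 5 were dim, LIPE, a lipase that is also expressed outside fat, being the exception at 6.01 in severe cows and 6.15 in mild cows. FABP4, a fatty acid carrier of fat cells and macrophages, ran from 3.97 to 7.73 in severe cows and from 4.42 to 4.99 in mild cows. RNA integrity, read as the 3' minus 5' signal of 3 bovine control transcripts, stood at -0.28 ± 0.11 in the 6 severe cows against -0.22 ± 0.14 in the 5 mild cows (mean ± SD), with an exact two-sided permutation p of 0.416.

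The 6 neighbouring gene lists of lipid metabolism had 0 members past the test across all probe sets, so the counts that follow are at an unadjusted limma p under 0.05. Beside each of these counts stand the shares over all 9155 genes: 7.46% lower and 8.45% higher at that level, and 51.1% below 0. Cholesterol synthesis, the other arm of the SREBP pathways, had 13 of 15 measured genes below 0 with a median of -0.28, and 4 were lower at that level: MSMO1, MVK, FDFT1 and HMGCS1. MSMO1, a sterol methyl oxidase, averaged 9.003 ± 0.19 in the 6 severe cows against 9.51 ± 0.38 in the 5 mild cows (mean ± SD), and MVK, mevalonate kinase, 7.23 ± 0.15 in severe cows and 7.5 ± 0.16 in mild cows. FDFT1, squalene synthase, averaged 7.41 in severe cows and 7.81 in mild cows. The medians of the cholesterol genes and of the 10 fatty acid genes, -0.28 and -0.26, are given side by side without a test.

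On the list of desaturation and its electron supply, 4 measured genes encode cytochrome b5 proteins or cytochrome b5 reductases. Of these, CYB5R3 and CYB5A were lower on average in severe cows, and CYB5R1 and CYB5B were at 0.12 and 0.03, none past the adjusted test. CYB5R3, a cytochrome b5 reductase, ranged from 10.44 to 10.74 in severe cows and from 10.88 to 10.99 in mild cows, without overlap, which held for 0.437% of all genes in that direction. Its difference was -0.32 ± 0.07 (SE, limma adjusted p = 0.249), and the exact two-sided permutation p was 0.00433. CYB5A, the cytochrome b5 that carries electrons to SCD and FADS2, ranged from 6.33 to 6.86 in severe cows and from 6.84 to 7.28 in mild cows, a difference of -0.38 ± 0.12 (SE, limma adjusted p = 0.307). These were the 2 of 7 measured genes of that list at an unadjusted p under 0.05, the desaturase FADS3 being at 0.36. The median of the list was 0.03.

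Among 14 other genes of synthesis, elongation and activation 2 were lower and 3 higher at that level, with a median of 0.000896. TECR, which completes each round of elongation, averaged 7.98 ± 0.32 in the 6 severe cows against 8.65 ± 0.33 in the 5 mild cows (mean ± SD), a difference of -0.67 (limma adjusted p = 0.288). MECR, the mitochondrial counterpart of TECR, was at -0.23, while HACD4, a dehydratase of the elongation cycle, averaged 6.73 in severe cows and 5.93 in mild cows. Of 12 genes that supply acetyl-CoA and NADPH 9 were below 0, with a median of -0.10, and 2 were lower at that level. DLAT, a subunit of the pyruvate dehydrogenase complex, differed by -0.27 and PGLS of the pentose phosphate pathway by -0.24, while ACSS1, the mitochondrial relative of ACSS2, was at 0.38.

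Genes listed as regulators of lipogenic transcription were spread around 0, with 8 below and 16 above, a median of 0.05, and 1 gene at that level in each direction. The lower one was MID1 at -0.50, which is not itself an established regulator of lipogenic transcription. MID1IP1, on the same list, was at -0.19. RXRA, a nuclear receptor that partners the lipogenic liver X receptors, differed by 0.29. PRKAA1, a catalytic subunit of the AMP-activated kinase that switches off acetyl-CoA carboxylase, averaged 6.22 in severe cows and 5.83 in mild cows. INSIG1 and SCAP, which hold and escort SREBP proteins, were at 0.03 and -0.13, and SREBF2, which drives cholesterol synthesis, at -0.12. Of 15 esterification genes 1 was higher at that level and 0 lower, with a median of 0.02. DGAT2, which makes triglyceride, averaged 5.18 in severe cows and 4.65 in mild cows, a dim probe set, and AGPAT5 and AGPAT4, acyltransferases of phosphatidic acid synthesis, were at -0.26 and -0.24.

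**Figure D4:**
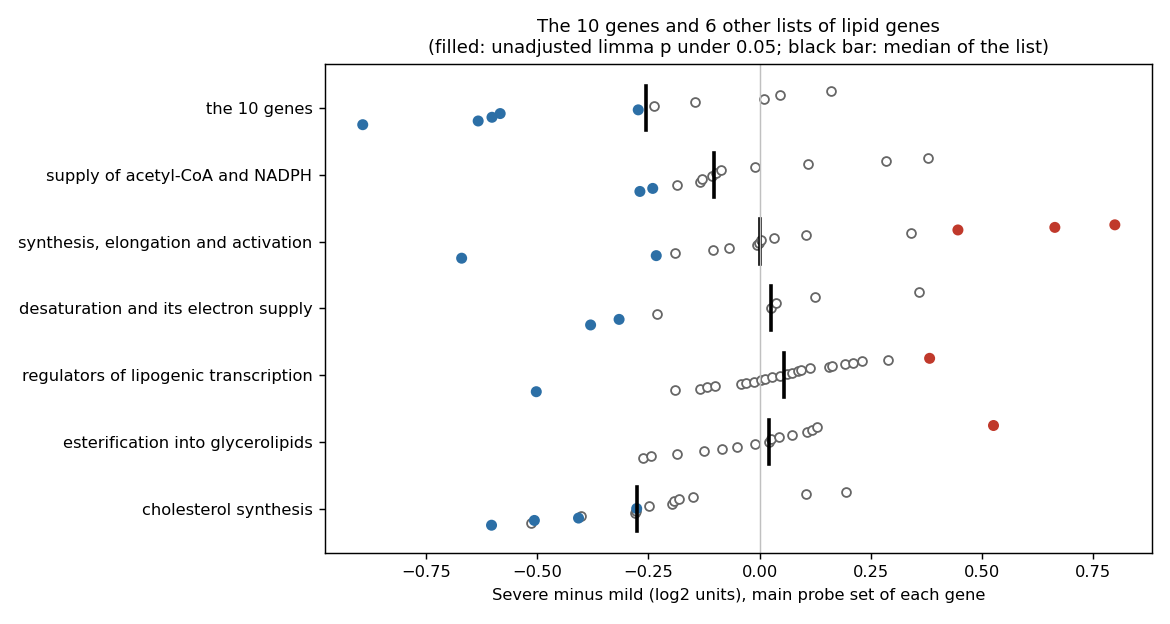
Severe minus mild difference (horizontal axis, log2 units) of the 10 genes and of 6 lists of other lipid genes, a point per gene, filled where the unadjusted limma p is under 0.05, with the median of each list as a black bar. The 10 genes and cholesterol synthesis have medians of -0.26 and -0.28, and the medians of the other 5 lists lie between -0.10 and 0.05.

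Among all other named genes on the array, those whose signal over the 11 cows was most like the mean of the 10 centred genes were ATXN10, MSMO1, DNAJC22, TIMM9 and UST. Their Pearson r with that mean was 0.953, 0.929, 0.929, 0.929 and 0.916, and 0.921, 0.860, 0.906, 0.883 and 0.919 after group means were subtracted. They were chosen for this likeness, so no test is given. DNAJC22 was dim, at 4.37 in severe cows and 4.76 in mild cows.

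**Figure D5:**
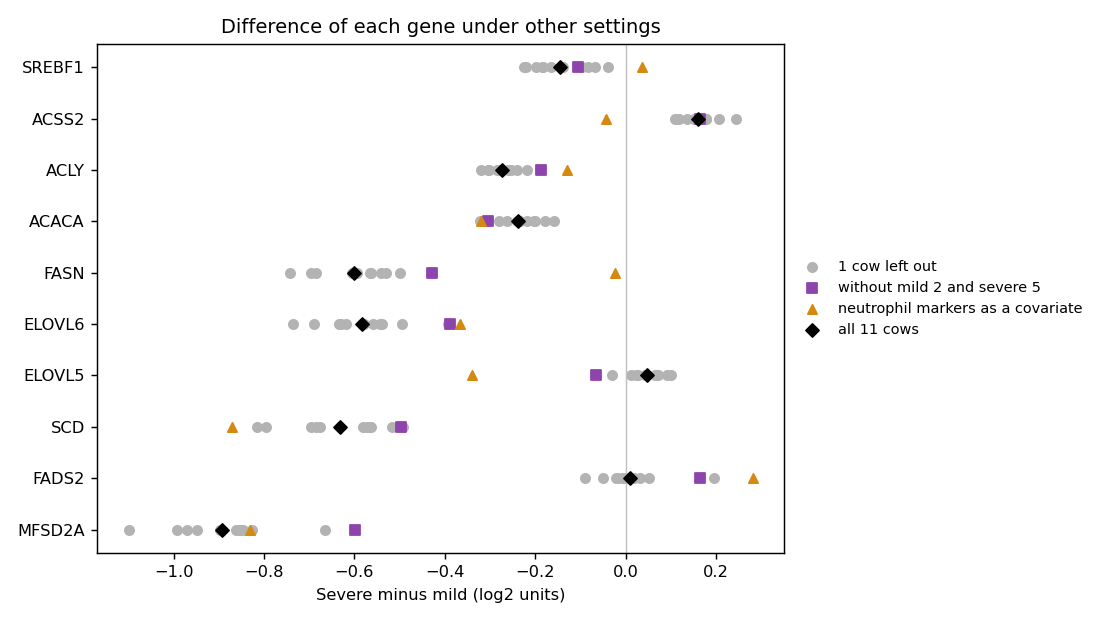
Severe minus mild difference (horizontal axis, log2 units) of each gene with all 11 cows (diamond), with each cow left out (grey), without mild 2 and severe 5 (square) and with neutrophil markers as a covariate (triangle). SCD, MFSD2A, ELOVL6, FASN, ACLY and ACACA stay below 0 in all of these, and FASN comes to -0.02 with the neutrophil covariate.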

How the data were processed

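RNA from 11 cows was measured on 1 array each. The deposited values are log2 signals made by the authors with RMA, as the submitters' processing notes record. That the scale is log2 follows from their range, 2.63 to 14.6, with a median of 6.20 on every array. The RMA version is not given in the sources used here. Of 24128 probe sets 112 controls were left out. In the platform annotation 13292 of the rest had 1 symbol, 86 had several and 10638 were not listed. A RefSeq gene table (ARS-UCD2.0), used only for names, matched 13263 by gene number and renamed 0.

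Severe was compared with mild over all 24016 probe sets using limma 3.58.1 under R 4.3.3: a linear model with moderated variance, two-sided, p-values adjusted by Benjamini-Hochberg, threshold 0.05. Single genes were also tested by exact permutation over 462 splits. Correlations used 100000 resamples, or all orders with under 10 cows. On simulated data limma found 42% of probe sets shifted by 0.5 log2 units and 86% of those shifted by 1, and 15 of its 178 calls were wrong. The shifted probe sets were picked at random and their noise was independent, so these shares are not the power for the 10 genes. An array has no read depth, and the number of arrays limits the precision. Cows were named in sample order, which pairs none of them, and no batch is given in the sources used here. The p-values rest on 1 sample per cow.

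The genes, lists and settings were chosen with earlier results of these data known. Named were the 10 genes, the 3 genes of each lipid list with the smallest p and the 5 most alike genes. The 2 brightest markers were named for neutrophils, macrophages, T and NK cells, epithelium, stromal fibroblasts and adipocytes. For B and plasma cells, endothelium and smooth muscle only the marker means are discussed. CYB5R1, CYB5B, HMGCS1, INSIG1, SCAP, SREBF2, MID1IP1 and FABP4's range were added after values were seen. The 45 pairs of genes, the 90 relations with markers and the macrophage covariate were added after the group differences were seen. Python 3.11.15, scipy 1.17.1 and matplotlib 3.10.9 were used.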

Additional observations from a re-analysis of the deposited data

Results flagged for a closer look

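Of 64 groups of values examined, 2 held a cow far from the rest, where chance flags about 1 in 20. They covered the 10 genes, the 3 genes of each lipid list with the smallest p, and the genes most like the 10 across cows. TECR read 8.07 in mild 5, against 8.70 in the nearest mild cow. MECR read 5.85 in severe 3, against 5.56 in the nearest severe cow. None of the 10 genes had such a cow.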

How the results depend on the processing

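No gene of the 10 passed an adjusted p of 0.05 under any of the settings tried. The count of all probe sets that passed was 0, or 16 without severe 1 and 2 without severe 3, a range of 0 to 16 with 1 cow left out, and 3085 had an unadjusted p under 0.05. The count of genes lower at an unadjusted p under 0.05 was 5. It was 1 with the neutrophil covariate (ELOVL5, which is not among the 5), 0 with the macrophage covariate, 1 without mild 2 and severe 5, and 3 to 6 with 1 cow left out. Of all 24016 probe sets 1412 were lower at that level. This became 698 with the neutrophil covariate, 471 with the macrophage covariate, 1298 without mild 2 and severe 5, and 969 to 2010 with 1 cow left out. The count of genes higher at that level was 0, or 1 without severe 3. Of all probe sets 1673 were higher, and 2022 without severe 3. The exact test called 3 genes, all lower (6.41% of all genes were), 1 without mild 2 and severe 5 (4.78% of all genes), and 3 to 5 with 1 cow left out. The median over the 10 genes stayed between -0.31 and -0.23 with 1 cow left out. FASN, ACLY, ACACA, ELOVL6, SCD and MFSD2A kept their sign in every setting. ELOVL5 turned to -0.00456 with array weights, -0.34 with the neutrophil covariate, -0.0653 with the macrophage covariate, -0.0658 without mild 2 and severe 5 and ran from -0.0311 (without severe 5) to 0.0993 with 1 cow left out. FADS2 turned to -0.0234 after a second quantile normalization and ran from -0.0909 to 0.196 with 1 cow left out. With the neutrophil covariate SREBF1 was at 0.0366, ACSS2 at -0.0430 and FADS3 at -0.50. The 5 pairs that passed by r were 0 without mild 2 and severe 5, 0 without the 2 far cows of each pair, 0 after group means were subtracted, and 1 to 9 with 1 cow left out, the 1 being without mild 2. The 3 relations with markers that passed by r (7 by rho) were 0 without the 2 far cows and 0 to 9 with 1 cow left out. The cause of these moves was not tested. ELOVL6 gave no value without the dimmest 40%, since it lies among them. No paired analysis was possible because the labels give the cows no shared replicate numbers and no block per animal.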
